A study of Homo sapiens with 6 samples.

Results

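The genes described are the ZNF genes of human chromosome 19 that were expressed in RKO cells, an established line of colorectal cancer cells. A gene was included where its symbol was ZNF followed by digits (a letter suffix allowed, pseudogenes left out), where GENCODE release 29 places it on chromosome 19, and where its mean over all 6 RNA sequencing libraries was at least 1 FPKM (fragments per kilobase of gene and per unit of library depth). This gave 155 genes of 20289 in the table, and of 247 ZNF genes of the chromosome in it. Of the others, 91 had a mean under 1 FPKM, 28 of them listed at 0 in every library, and ZNF473 was left out by the rule. The mean level therefore chose the members, and levels are given as a description.

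Both groups are RKO cells carrying a short hairpin RNA: a hairpin against TRMT6 in the shTRMT6 group (3 libraries) and a control hairpin in the shControl group (3 libraries). TRMT6 is the non-catalytic subunit of the enzyme that methylates position N1 of an adenosine in many tRNAs. The labels give neither the hairpin sequences nor how long the cells carried a hairpin, and do not say whether the line was cloned. The labels do not call the replicates separate cultures, and the spread behind every p-value may therefore be technical. TRMT6 itself read 1.58, 1.73 and 1.09 FPKM in shTRMT6 libraries and 14.43, 17.96 and 16.85 FPKM in shControl libraries, 11.2-fold lower in shTRMT6 (limma adjusted p = 4.33e-08; exact two-sided permutation p = 0.1, the smallest that 3 libraries against 3 allow). The epithelial markers KRT18 (at least 105 FPKM in every library), KRT8 (at least 8.40) and EPCAM (at least 3.01) and the colon factor CDX2 (at least 4.53) were present, whereas CDH1, KRT19, CDX1 and VIL1 were listed at 0 in every library and LGALS4 stayed at or under 0.080 FPKM. The 9 markers of blood, endothelium and fibroblasts stayed at or under 0.650 FPKM. Rough estimates from the smallest steps between low values put the depth at 18 to 20.4 M (mega) fragments in shTRMT6 and 20.9 to 28.2 M in shControl libraries. The library shControl replicate 1 stood apart: its levels relative to the mean of the 6 libraries climbed with the GC content of the transcript, more steeply than in any other library. The main counts are therefore given with and without it.

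Most ZNF genes of chromosome 19 encode zinc finger proteins of the KRAB class. Such a protein carries a row of C2H2 fingers, each a short loop held by a zinc ion, which together read a stretch of DNA, and a KRAB domain that recruits the corepressor TRIM28 and, through it, the histone methyltransferase SETDB1. Many of them bind and silence transposable elements. The genes arose by repeated tandem duplication and stand in clusters along the chromosome, and in many cell types they lie in chromatin marked by trimethylation of histone H3 at lysine 9. By a pattern search in the translated coding sequences of GENCODE, 130 of the 155 genes encode a KRAB A box and 25 do not. The median protein had 588 residues and 12 fingers (range 0 to 31), and the finger array made up 61.7% of the median coding sequence.

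The repeat that these genes share is the finger with its linker, 28 codons or 84 bases long. A full unit of this kind occurred 869 times in 130 members, with a median GC content of 41.7% and a range from 29.8 to 72.6%. An example is given from each of 4 members that were higher in shTRMT6, from ZNF544, which was lower, and from ZNF317, which did not pass the test. The units were found by a pattern that fixes the length, the zinc-binding residues and the linker. Their likeness in these parts is therefore no result. The examples are read from GENCODE transcripts on GRCh38, and the capitals mark the 15 bases that encode the conserved linker to the next finger.
ZNF737 (chr19:20544673-20544756, minus strand): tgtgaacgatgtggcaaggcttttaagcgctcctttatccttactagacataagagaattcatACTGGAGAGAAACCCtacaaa
ZNF616 (chr19:52115262-52115345, minus strand): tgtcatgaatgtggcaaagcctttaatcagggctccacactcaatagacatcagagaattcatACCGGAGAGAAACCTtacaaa
ZNF432 (chr19:52034137-52034220, minus strand): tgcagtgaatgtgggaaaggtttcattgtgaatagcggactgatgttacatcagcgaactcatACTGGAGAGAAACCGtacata
ZNF181 (chr19:34741432-34741515, plus strand): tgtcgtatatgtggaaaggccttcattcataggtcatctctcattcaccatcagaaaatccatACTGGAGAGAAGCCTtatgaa
ZNF544 (chr19:58262170-58262253, plus strand): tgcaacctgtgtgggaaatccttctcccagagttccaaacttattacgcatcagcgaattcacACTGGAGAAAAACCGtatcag
ZNF317 (chr19:9160315-9160398, plus strand): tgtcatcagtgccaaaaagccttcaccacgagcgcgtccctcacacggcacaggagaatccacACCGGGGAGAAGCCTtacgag
The units of ZNF737 and ZNF181 hold 40.5% G and C, those of ZNF616, ZNF432 and ZNF544 41.7, 42.9 and 45.2%, and that of ZNF317 58.3%. Transcripts followed their finger arrays in GC content (Pearson r of 0.94 over 154 members). Transcript GC content had a median of 42.5% over the members (42.3% with and 61.7% without a KRAB A box), and 93 of the 155 members fell in the 3 lowest of 10 equal bands of all tested genes.

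The members were low in abundance, and of those called nearly all were higher in shTRMT6. Their median level was 2.66 FPKM, 122 lay under 5 FPKM and 14 at or above 10. Of the 155 members, 47 were higher in shTRMT6 (30.3%), where 19.3% of all 10592 tested genes were higher; 2 members were lower (1.29%), where 16.1% of all tested genes were lower (limma on log2(FPKM + 1), Benjamini-Hochberg adjusted p under 0.05 over all tested genes). Either way, 49 members were called, where 35.4% of all tested genes were, and the other 106 did not pass. The fit with the replicate number as a block called 62 higher and 2 lower, where it called 25.5% and 21.3% of all tested genes. The log2 fold change was above 0 for 127 members and for 5603 of all 10592 tested genes, with a median of 0.25 against 0.024 over all tested genes. As a ratio of mean FPKM the median was 1.29 against 1.02, since adding 1 FPKM before taking logs shrinks the change of low genes. The ratio was at least 1.5 for 45 members, where 8.82% of all tested genes reached it. It was at least 2 for 9 members and for 177 of all 10592 tested genes. All 9 members had a mean from 1 to 5 FPKM. In 63 members every shTRMT6 library lay above every shControl library (40.6%, against 26.2% of all tested genes), and in 5 every shTRMT6 library lay below (3.23%, against 22.1%). No test of the list as a whole was made, since its members were chosen with results of these data known.

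Few members met the level filter through a single group. In all, 146 members had a group mean of at least 1 FPKM in both groups, of which 43 were higher and 2 lower, while 8 met the filter through shTRMT6 alone and 1 through shControl alone. Closest above the limit were ZNF235, with a mean of 1.00 FPKM, and ZNF529, with 1.04 FPKM. Closest below it were ZNF573 (0.998 FPKM) and ZNF460 (0.977 FPKM). ZNF235 read 1.43, 0.930 and 1.94 FPKM in shTRMT6 and 0.460, 0.510 and 0.730 FPKM in shControl (log2 fold change 0.62, limma adjusted p = 0.0109), and its call ended with the GC correction described below (adjusted p = 0.0553). ZNF529 did not pass (0.22, adjusted p = 0.256).

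Among members whose groups did not overlap, ZNF737 and ZNF616 had the highest fold changes. ZNF737 read 5.06, 3.31 and 2.77 FPKM in shTRMT6 libraries and 0.800, 1.41 and 1.91 FPKM in shControl libraries. Its values were spread widely within both groups, yet the lowest shTRMT6 library exceeded the highest shControl library (2.70-fold, log2 fold change 0.99, SE 0.20, adjusted p = 0.00217). ZNF616 read 3.55, 4.27 and 3.18 FPKM in shTRMT6 and 1.01, 1.62 and 1.54 FPKM in shControl (2.64-fold, 0.97, SE 0.15, adjusted p = 0.000397). ZNF432, which has been linked to the repair of DNA damage, read 5.45, 5.98 and 4.40 FPKM in shTRMT6 and 2.10, 2.59 and 2.42 FPKM in shControl (2.23-fold, 0.89, SE 0.13, adjusted p = 0.000381). The shControl libraries lay close together in ZNF432, while in ZNF616 shControl replicate 1 was below the others. In both genes each shTRMT6 library was well above every shControl library.

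ZNF561 was the most abundant of the members with a KRAB A box among those that rose. It read 22.61, 25.25 and 20.76 FPKM in shTRMT6 and 9.71, 14.05 and 12.39 FPKM in shControl (1.90-fold, 0.88, SE 0.13, adjusted p = 0.000389). Its neighbour ZNF562, added after its values were seen, also rose, with 13.9 ± 0.740 FPKM in shTRMT6 and 7.79 ± 2.09 FPKM in shControl (SD, n = 3 each; log2 fold change 0.79, limma adjusted p = 0.00175). Of its exonic bases 19.9% overlap exons on the opposite strand, so fragments of an antisense gene could not be told apart from its own. ZNF561 and ZNF562 share little sequence: the pair share 0.714% of the 75-base windows of the ZNF561 transcript. ZNF556 had the smallest spread of the named members within shTRMT6, at 10.06, 9.97 and 9.78 FPKM, against 5.03, 5.80 and 5.79 FPKM in shControl (1.79-fold, 0.74, SE 0.11, adjusted p = 0.000363).

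A further 5 members named by the fixed rule rose by 1.98-fold to 2.13-fold. ZNF28 read 4.14, 4.57 and 3.68 FPKM in shTRMT6 and 1.54, 2.19 and 2.10 FPKM in shControl. ZNF627 read 5.64, 6.53 and 4.84 FPKM in shTRMT6 and 2.45, 3.32 and 2.70 FPKM in shControl. ZNF181 read 3.57, 3.99 and 3.24 FPKM in shTRMT6 and 1.68, 1.65 and 1.81 FPKM in shControl. In all 3 every shTRMT6 library lay above every shControl library, with adjusted p of 0.000773, 0.000849 and 0.000659 in that order. ZNF227 read 5.61, 6.58 and 7.83 FPKM in shTRMT6 and 2.65, 3.51 and 3.93 FPKM in shControl (0.82, SE 0.15, adjusted p = 0.00115). Because 24.1% of the exonic bases of its transcript overlap exons on the opposite strand and the strand setting is not given in the sources used here, fragments of the antisense gene could not be told apart from its own. ZNF766 read 5.51, 7.34 and 4.05 FPKM in shTRMT6 and 1.93, 2.64 and 3.94 FPKM in shControl, so that its groups nearly touched (0.79, SE 0.20, adjusted p = 0.00829), and with no filter on low values it was no longer called (adjusted p = 0.0683). ZNF527, the leading gene of its cluster, read 1.57, 2.36 and 1.68 FPKM in shTRMT6 and 0.880, 1.32 and 1.05 FPKM in shControl (0.46, SE 0.15, adjusted p = 0.0280). Its call ended without shTRMT6 replicate 2 (adjusted p = 0.137), without shControl replicate 1 (0.0750) or 3 (0.0701), with the GC correction (0.0736) and with no low-value filter (0.0517).

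**Figure D1:**
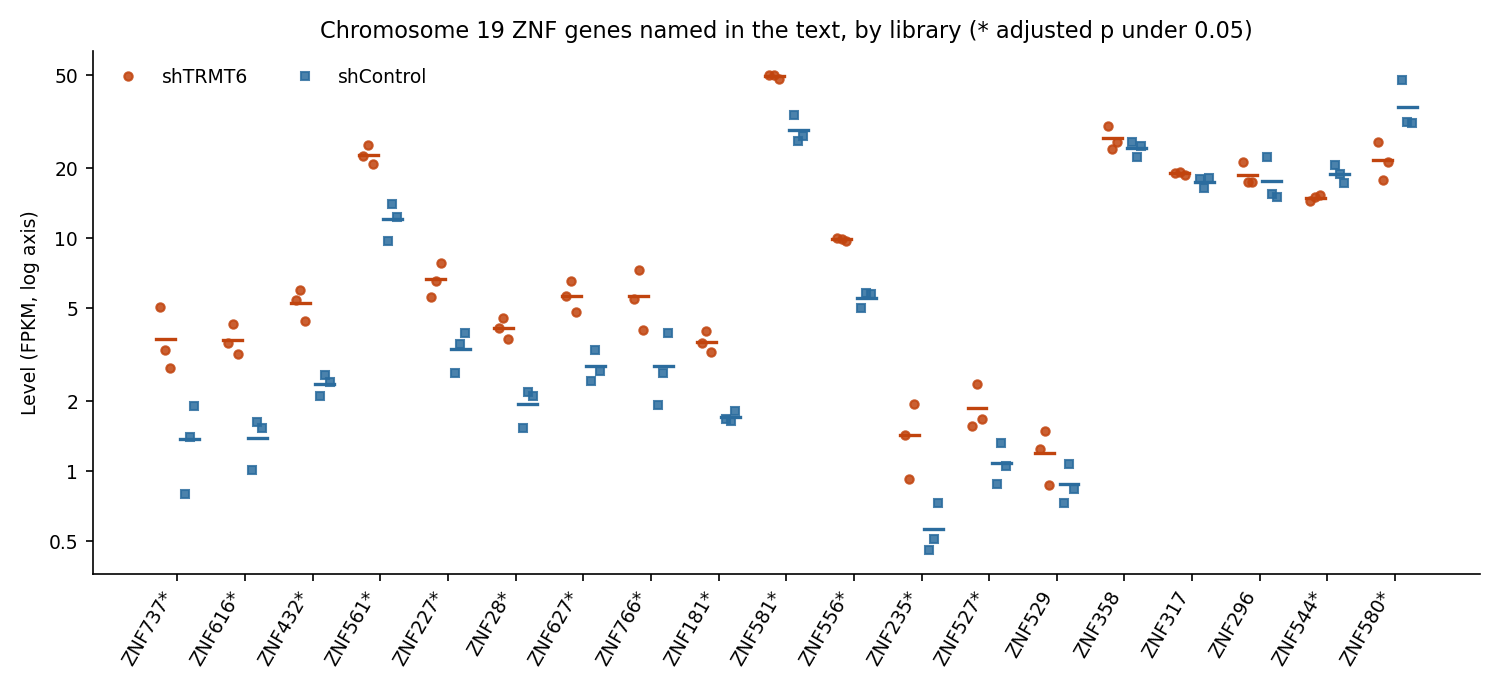
Level in FPKM (log axis) of the 19 members named by the fixed rule, shTRMT6 libraries as circles left of shControl libraries as squares, with a bar at each group's mean and an asterisk at genes past the threshold. The 13 genes at the left end that carry an asterisk have every shTRMT6 library above every shControl library, and ZNF544 and ZNF580 at the right end have every shTRMT6 library below.

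Of members with a role that is well described, chosen after their values were seen, some were called and some not. ZNF91, a repressor of SVA transposable elements in primates, averaged 2.66 ± 0.286 FPKM in shTRMT6 and 1.56 ± 0.236 FPKM in shControl (SD, n = 3 each; 1.70-fold, limma adjusted p = 0.00874). ZNF350, also known as ZBRK1, a repressor that binds BRCA1, averaged 3.19 ± 0.513 FPKM in shTRMT6 and 1.74 ± 0.915 FPKM in shControl (1.83-fold, adjusted p = 0.0233). ZNF420, also known as APAK, a repressor of p53 activity, averaged 2.88 ± 0.545 FPKM in shTRMT6 and 1.93 ± 0.271 FPKM in shControl (1.49-fold, adjusted p = 0.0412). After the GC correction ZNF91 and ZNF420 no longer passed (adjusted p = 0.0833 and 0.219), while ZNF350 did (0.0467). ZNF350 lost its call with shControl replicate 1 left out (limma adjusted p = 0.0765), likewise when shTRMT6 replicate 2 was dropped (0.0726) or low genes were kept (0.110). ZNF420 lost it without shControl replicate 1 (0.0974) or 2 (0.0612), without shTRMT6 replicate 2 (0.188) or 3 (0.0623) and with no low-value filter (0.0802). ZNF224, a repressor of the aldolase A gene, averaged 4.0 ± 0.817 FPKM in shTRMT6 and 3.29 ± 0.485 FPKM in shControl and did not pass (adjusted p = 0.256).

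The 2 members that fell, ZNF580 and ZNF544, both lie in the last cluster before the end of the long arm. ZNF544 read 14.45, 15 and 15.32 FPKM in shTRMT6 and 20.61, 18.96 and 17.21 FPKM in shControl (1.27-fold lower, log2 fold change -0.32, SE 0.10, adjusted p = 0.0295). Its groups did not overlap, but the call ended without shTRMT6 replicate 1 (adjusted p = 0.115) or 2 (0.0800) and without shControl replicate 1 (0.0527) or 2 (0.0723). ZNF580, first described in endothelial cells, read 25.83, 17.80 and 21.23 FPKM in shTRMT6 and 47.58, 31.45 and 31.20 FPKM in shControl (1.70-fold lower, -0.73, SE 0.16, adjusted p = 0.00438). Next to it on the same strand lies ZNF581, the most abundant member, which moved the other way. ZNF581 read 50.32, 50.44 and 48.23 FPKM in shTRMT6 and 33.94, 26.21 and 27.44 FPKM in shControl (1.70-fold higher, 0.76, SE 0.11, adjusted p = 0.000310). Neither encodes a KRAB A box, and both are rich in GC (61.7% and 59.6% for ZNF580 and ZNF581).

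Set side by side within each library, the summed level of ZNF580 and ZNF581 overlapped between the groups while its division did not. The division could not overlap, since every shTRMT6 library lay above every shControl library in ZNF581 and below in ZNF580. It restates those calls and is no further result. The sum was 76.2, 68.2 and 69.5 FPKM in shTRMT6 and 81.5, 57.7 and 58.6 FPKM in shControl. ZNF581 made up 66.1, 73.9 and 69.4% of it in shTRMT6 and 41.6, 45.5 and 46.8% in shControl. The ZNF580 gene spans chr19:55635016-55643469 and ZNF581 chr19:55635459-55645622 in GENCODE release 29, and 19.2% of the exonic bases of the ZNF581 transcript used here lie in exons of another gene on the same strand. The ZNF581 transcript shares 14.4% of its 75-base windows with another gene, ZNF580 first, and the ZNF580 transcript shares none. How the authors' counting divided fragments between the neighbours was not tested. Both calls held in every alternative tried on these genes, the GC correction and each library left out in turn among them.

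**Figure D2:**
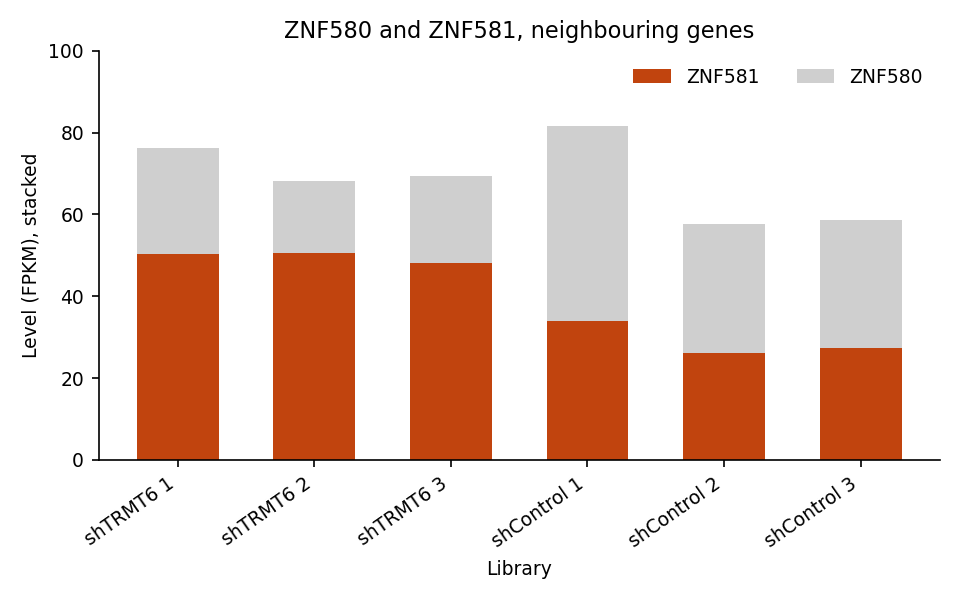
Level in FPKM of ZNF581 (coloured, below) and ZNF580 (grey, above) in each library, stacked, shTRMT6 libraries left of shControl libraries. ZNF581 takes 66.1 to 73.9% of the stack in shTRMT6 and 41.6 to 46.8% in shControl, while the height of the stack overlaps between the groups.

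Of the most abundant members some were called and some not. The 6 most abundant members were ZNF581, ZNF580, ZNF358, ZNF296, ZNF317 and ZNF561. Of these 3 were called and 3 did not pass the test, where 35.4% of all tested genes were called. ZNF358 read 30.43, 24.09 and 26.01 FPKM in shTRMT6 and 25.85, 22.27 and 25 FPKM in shControl (log2 fold change 0.13, adjusted p = 0.384). ZNF317 read 18.99, 19.34 and 18.68 FPKM in shTRMT6 and 18.02, 16.42 and 18.09 FPKM in shControl (0.11, adjusted p = 0.392). ZNF296, whose mouse counterpart takes part in reprogramming to pluripotency, read 21.25, 17.39 and 17.52 FPKM in shTRMT6 and 22.24, 15.52 and 15.08 FPKM in shControl (0.099, adjusted p = 0.621). The groups of ZNF358 and ZNF296 overlapped, and those of ZNF317 were apart by less than the range of its shControl libraries. With the GC correction described below, ZNF358 was called higher (0.29, limma adjusted p = 0.0356). ZNF317 and ZNF296 did not pass with it (limma adjusted p = 0.0809 and 0.0585).

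Along the chromosome, higher members occurred in 9 of the 14 positional clusters that held a member, a cluster being a run of ZNF genes with no gap over 1 Mb between starts. Clusters are numbered in order from the end of the short arm, and the shares below stand against 19.3% of all tested genes higher. In cluster 1 (2.82 to 2.94 Mb), 3 of 4 members rose, with ZNF556 in front (median log2 fold change 0.47). Clusters 2 (7.07 to 9.79 Mb) and 3 (11.5 to 12.6 Mb) held 10 and 16 members, of which 2 (20%) and 6 (37.5%) rose. The log2 fold change was above 0 in every one of these 26 genes, and in 5603 of all 10592 tested genes. With the GC correction ZNF69, ZNF700 and ZNF443 were below 0 (-0.13, -0.039 and -0.14). Without shControl replicate 1 ZNF653, ZNF69 and ZNF443 were (-0.058, -0.012 and -0.065). Cluster 5 (19.7 to 24.1 Mb), next to the centromere and the lowest in GC of the larger clusters (median 37.3%), had 9 of 18 members higher (50%) and a median of 0.41. In cluster 8 (34.7 to 34.96 Mb) ZNF302 and ZNF181 rose while the other 3 members had values from -0.24 to -0.099. The ZNF302 call lay near the threshold (limma adjusted p = 0.0427). Dropping any shTRMT6 library ended this call (0.084, 0.158 and 0.0508 for replicates 1, 2 and 3), as did dropping shControl replicate 1 (0.120). The call also ended when low genes were kept (0.0874) and under the GC correction, alone (0.159) or with the replicate block (0.161). Cluster 9 (36.2 to 37.8 Mb) had 5 of 15 higher (33.3%) with ZNF527 in front, cluster 12 (43.5 to 45.1 Mb) 4 of 18 (22.2%), and cluster 15 (51.6 to 53.6 Mb) 10 of 26 (38.5%). In the largest, cluster 16 (55.5 to 58.5 Mb), 6 of 36 members rose (16.7%) and 2 fell, with a median of 0.12, below that of every other cluster of at least 10 members. The shares of clusters 2, 12 and 16 were thus near or below the background. Without shControl replicate 1, where 17.8% of all tested genes were higher, 3, 2, 2 and 7 members were higher in clusters 1, 2, 3 and 5. In clusters 8, 9, 12, 15 and 16 it was 1, 0, 4, 7 and 3 members. The GC correction described below called 21.8% of all tested genes higher. With it, 3, 3, 2 and 5 members were higher in clusters 1, 2, 3 and 5. In clusters 8, 9, 11, 12, 15 and 16 it was 1, 0, 1, 3, 8 and 8 members. Across members the log2 fold change had a Pearson correlation of -0.20 with position, while that of GC content with position was 0.23 (n = 155 genes, which share clusters and ancestry).

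Within cluster 15 the higher members were bunched, a run picked after its values were seen. Of 8 consecutive members from ZNF613 to ZNF766, which span 368.9 kb, 5 rose (ZNF350, ZNF432, ZNF841, ZNF616 and ZNF766) and the other 3, ZNF613, ZNF615 and ZNF836, had values of 0.45, 0.32 and 0.29. The same 5 passed after the GC correction, and 4 did without shControl replicate 1, ZNF350 being the one lost. In the same cluster ZNF468 rose (0.67, limma adjusted p = 0.0111, but 0.0510 without shTRMT6 replicate 2 and 0.0717 with no low-value filter) and its neighbour ZNF320 did not pass (0.055, adjusted p = 0.867). The transcripts of ZNF468 and ZNF320 share 99.2% and 99.5% of their 75-base windows with each other or with further genes, so their separate values are uncertain. Of 68 tested genes of other kinds inside the intervals of the clusters, 8 were higher (11.8%) and 14 lower (20.6%), with a median of -0.080, and after the GC correction 14 were higher and 12 lower, with a median of -0.0044. Their GC content is higher (median 58.4%, against 42.5% for the members), so position and base composition cannot be told apart in this comparison.

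**Figure D3:**
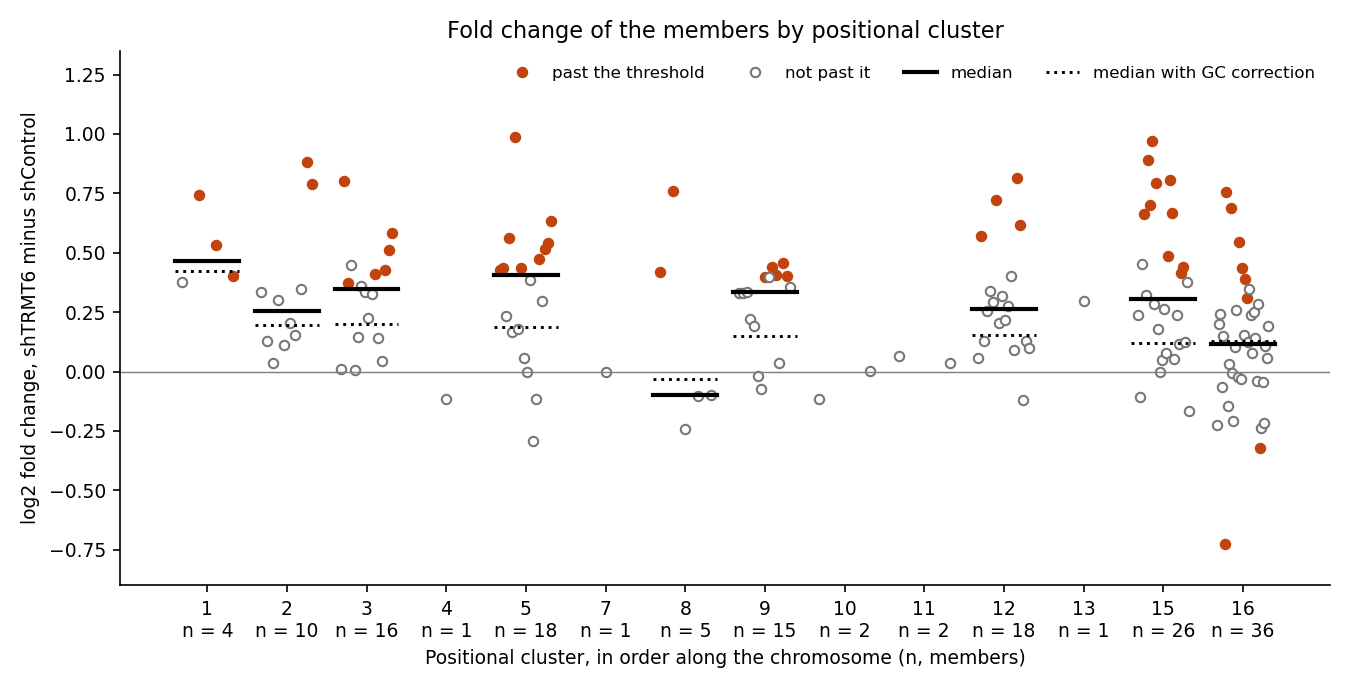
log2 fold change (shTRMT6 minus shControl) of each member, grouped by positional cluster in order along the chromosome, with the genes of a cluster also in order. Filled points passed the threshold; the solid bar is the median of a cluster with at least 4 members and the dotted bar the median after the GC correction. Cluster 5 has a median of 0.41 and cluster 16 of 0.12; after the correction they are 0.19 and 0.13.

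Most calls were of members of low GC content. Of 129 members under 50% GC, 45 rose and 1 fell (34.9% and 0.775%; median 0.31), and of 26 at or above 50%, 2 rose and 1 fell (median 0.046). Without shControl replicate 1, 27 of the 129 and 2 of the 26 were higher, where 17.8% of all tested genes were. Among the other tested genes under 50% GC, 28.9% were higher and 6.90% lower, with a median of 0.16. Among ZNF genes of other chromosomes under 50% GC, 37 of 112 were higher and 1 lower, with a median of 0.22. In the lowest GC band (up to 38.7%), 11 of 25 members were higher (44.0%), against 35.2% of the other genes of that band. In the second band it was 8 of 31 (25.8%, against 34.99%), and in the third, from 41.2 to 43.4% GC, 18 of 37 (48.6%, against 32.4%). In the fourth it was 4 of 21 (19.05%, against 26.8%). Without shControl replicate 1 the members higher numbered 7, 7, 7 and 2 in these 4 bands, where 25.1, 26.5, 25.5 and 22.9% of the other genes were higher, so the excess in the third band was not seen there. When the other genes were weighted to the members' GC bands, 27.2% were higher and 9.15% lower, and the mean of the band medians was 0.14, against 30.3%, 1.29% and 0.27 for the members. Across members the fold change had a Pearson correlation of -0.31 with GC content (n = 155 genes), -0.11 without shControl replicate 1 and 0.13 after the GC correction below. What part base composition has in the members' fold changes was not tested beyond these values.

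**Figure D4:**
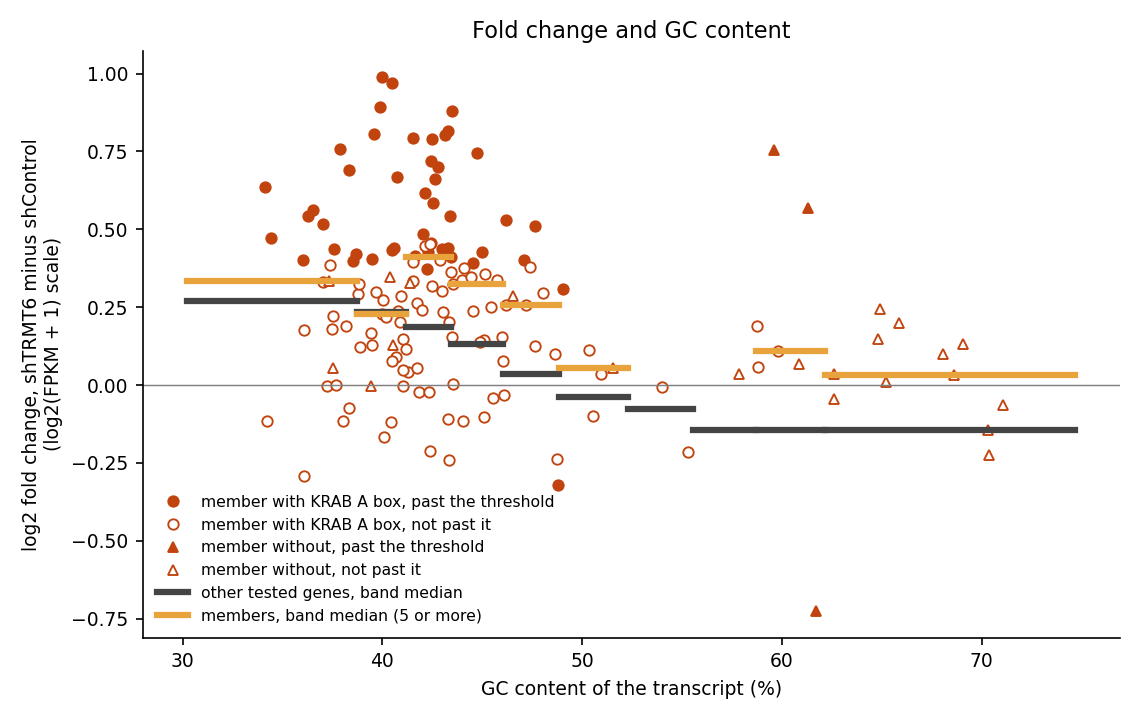
log2 fold change (shTRMT6 minus shControl, log2(FPKM + 1) scale) of each member against the GC content of its transcript, circles with and triangles without a KRAB A box, filled where past the threshold. Dark bars are the medians of the other tested genes in 10 bands of GC content and light bars those of the members where a band holds at least 5; in the third band they are 0.19 and 0.41, in the tenth -0.15 and 0.034.

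Members with a KRAB A box were mostly of low GC content, and most calls were among them. Of the 130 members with a KRAB A box 45 rose (34.6%, against 19.3% of all tested genes) and 1 fell (median 0.29). Leaving out shControl replicate 1, 27 of the 130 rose, where 17.8% of all tested genes did. Of the 25 without a KRAB A box, ZNF428 and ZNF581 rose and ZNF580 fell (median 0.067). The contrast was not seen with the GC correction. There 27 of the 130 (20.8%) and 7 of the 25 (28%) were higher, where 21.8% of all tested genes were. Lower were 5 and 1, and the medians were 0.17 and 0.18. Only 8 members with a KRAB A box had 50% GC or more, and none of these 8 passed (median 0.046). Of 7 members without a KRAB A box and under 50% GC none passed either, with a median of 0.29. By number of fingers, 9 of 32 members with 0 to 8 fingers, 16 of 50 with 9 to 12 and 22 of 73 with 13 or more rose (28.1, 32 and 30.1%, where 19.3% of all tested genes did). With the GC correction it was 10, 12 and 12 members (31.2, 24.0 and 16.4%, where 21.8% of all tested genes did). It was 6, 10 and 13 members without shControl replicate 1, where 17.8% of all tested genes were higher.

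The levels of the members differed between libraries of the same group. The median member read 3.06, 3.31 and 2.77 FPKM in shTRMT6 and 1.93, 2.63 and 2.38 FPKM in shControl, so shControl replicate 1 was lowest, and shTRMT6 replicate 2 was highest. In 98 of the 155 members shControl replicate 1 was the lowest library of all, and in 77 shTRMT6 replicate 2 was the highest. Per 10 points of GC content, the members' deviation from their mean over the 6 libraries changed by -0.017, -0.13 and -0.014 in shTRMT6 and by 0.20, -0.030 and -0.0063 in shControl. For the other tested genes the steepest slope was again that of shControl replicate 1, with -0.072, -0.15 and -0.024 in shTRMT6 and 0.22, -0.0048 and 0.034 in shControl. The low levels of members in shControl replicate 1 went with this slope: its median deviation was -0.36 for members under 50% GC and 0.082 for those at or above 50%. Without shControl replicate 1, 29 members were higher and 2 lower (17.8% and 16.3% of all tested genes), and the median was 0.19. Without shTRMT6 replicate 2, 24 were higher and 1 lower (12.2% and 10.5% of all tested genes; median 0.21).

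**Figure D5:**
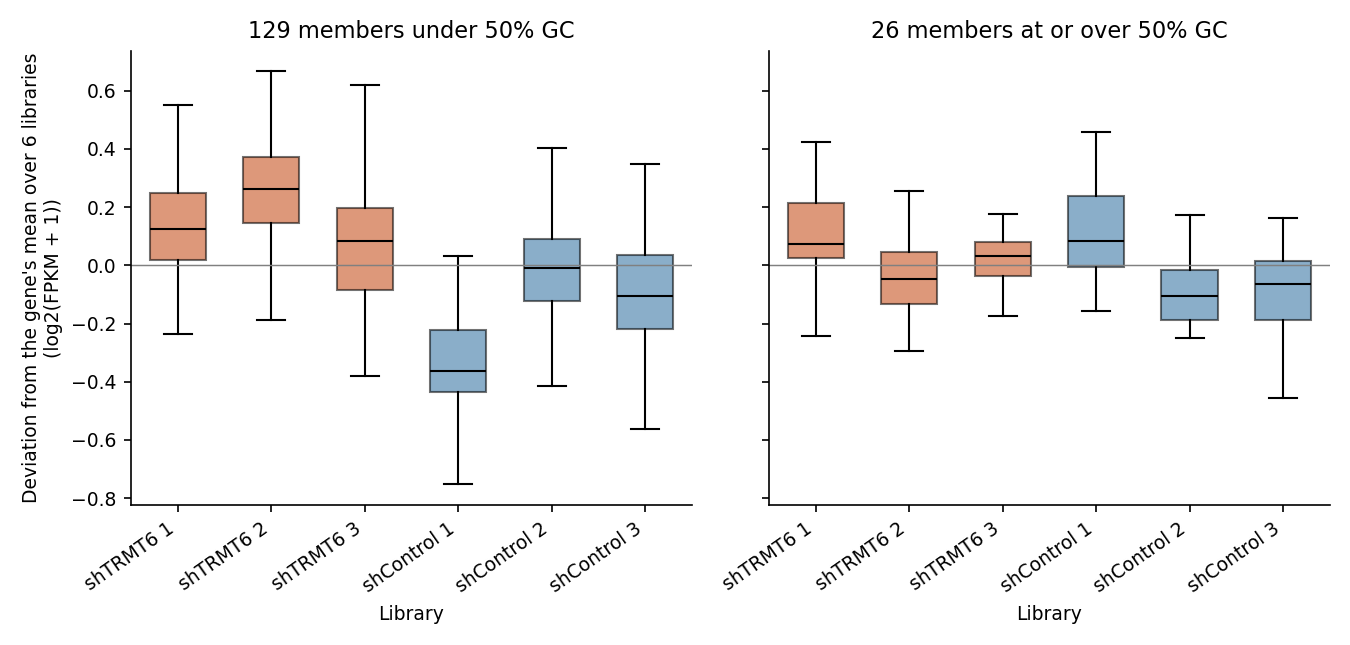
Deviation of each member's log2(FPKM + 1) from its mean over the 6 libraries, by library, for 129 members under 50% GC (left panel) and 26 at or above (right panel); boxes span the quartiles with the median, whiskers reach at most 1.5 times the box height, and points beyond are not drawn. In the left panel shControl replicate 1 has a median of -0.36 and the other libraries lie between -0.11 and 0.26; in the right panel its median is 0.082.

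In the GC correction, a curve of each library's deviations against the GC content of the transcript was subtracted. With it 34 members were higher (21.9%) and 6 lower (3.87%), where 21.8% and 16.8% of all tested genes were, so the share of higher members was that of the background, and the median was 0.17, against 0.25 uncorrected (0.034 and 0.024 over all tested genes). Of the 47 higher members 28 remained, 19 no longer passed and 6 were added. By GC content, 26 of the 129 members under 50% and 8 of the 26 at or above 50% were higher with the correction, against 45 and 2 without it. Of the members called, 34 of 40 were higher with the correction and 47 of 49 without it. The members added were ZNF358, ZNF574, ZNF579, ZNF524, ZNF784 and ZNF324B, and those newly lower were ZNF738, ZNF599, ZNF761 and ZNF264, all chosen after their values were seen. Across clusters with at least 10 members the corrected medians ran from 0.12 to 0.20, against 0.12 to 0.41 before. With the correction and without shControl replicate 1, a setting chosen after seeing the data, 27 members were higher (17.4%) and 4 lower (2.58%), where 18.9% and 16.7% of all tested genes were, and the median was 0.13. At the threshold of 0.05, the members that were higher in the main analysis and in every alternative, other than the one restricted to a mean of at least 5 FPKM, numbered 19, of which 18 (all but ZNF490) also had an adjusted p under 0.01 in the main analysis: ZNF556, ZNF57, ZNF561, ZNF562, ZNF627, ZNF490, ZNF253, ZNF737, ZNF254, ZNF181, ZNF428, ZNF222, ZNF227, ZNF432, ZNF841, ZNF616, ZNF28, ZNF581 and ZNF583. Of these ZNF490 shares 70.6% of its windows with other annotated genes, which leaves its value uncertain. How many of all tested genes were higher in every one of these settings was not computed. The 19 therefore have no background beside them and are not read as an excess.

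Members and other genes of like abundance were set side by side, with no test of the difference. Of 122 members from 1 to 5 FPKM, 38 were higher and 0 lower by limma (0 lower also at an unadjusted p under 0.05), against 372 and 259 of 2396 other genes in that range. These counts depended on the setting: without shControl replicate 1 they were 22 higher and 1 lower, against 282 and 283 of the others, and with the GC correction 21 higher and 3 lower, against 342 and 342. Of 33 members over 5 FPKM, 9 were higher and 2 lower, against 1623 and 1443 of 8041. Shared sequence was looked at by leaving members out: of 126 members sharing at most 10% of their windows with other genes, 41 rose and 1 fell (32.5% and 0.794%), and of the 78 that in addition share no exonic base with another gene, 25 rose and 1 fell (32.1% and 1.28%). Over all tested genes 19.3% were higher and 16.1% lower. Without shControl replicate 1, 26 of the 126 and 14 of the 78 were higher, where 17.8% of all tested genes were.

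In the main analysis the partners through which KRAB zinc finger proteins act were called at about the rate of all tested genes. Of 34 listed partners, all tested, 6 were higher (17.6%, against 19.3%) and 5 lower (14.7%, against 16.1%) in shTRMT6, and the median log2 fold change was 0.18. With the GC correction 4 were higher (11.8%, against 21.8% of all tested genes) and 7 lower (20.6%, against 16.8%). TRIM28, the corepressor that binds the KRAB domain, read 295.2, 277.6 and 282.1 FPKM in shTRMT6 and 336.8, 269.9 and 262.4 FPKM in shControl (-0.015, limma adjusted p = 0.927). SETDB1, the methyltransferase it recruits, read 7.82, 9.38 and 7.76 FPKM in shTRMT6 and 7.5, 7.71 and 6.59 FPKM in shControl (0.17, adjusted p = 0.275). The groups of TRIM28 overlapped, and every shTRMT6 library of SETDB1 lay above every shControl library by a small margin. SUV39H1 and SUV39H2, paralogous methyltransferases of histone H3 lysine 9, moved in opposite directions. SUV39H2 read 13.51, 17.34 and 10.78 FPKM in shTRMT6 and 5.82, 10.47 and 8.51 FPKM in shControl (0.69, adjusted p = 0.0119), and lost the call with no low-value filter (adjusted p = 0.0827). SUV39H1 read 10.80, 11.85 and 10.72 FPKM in shTRMT6 and 19.21, 15.48 and 14.45 FPKM in shControl (-0.51, adjusted p = 0.00552). DNMT1, the maintenance DNA methyltransferase, and UHRF1, which brings it to replicated DNA, were also lower. DNMT1 averaged 36.9 ± 1.4 FPKM in shTRMT6 and 58.8 ± 2.53 FPKM in shControl (1.59-fold lower), and UHRF1 averaged 51.2 ± 4.05 FPKM in shTRMT6 and 74.6 ± 1.76 FPKM in shControl (1.46-fold lower, SD, n = 3 each).

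Promoters of the members were looked at as a description, and no cause of the fold changes was tested. RefSeq promoter windows of 300 bases (250 before to 50 after the start, GRCh38.p14) were found for 138 of the 155 members. The CCAAT box (CCAAT), a common element of housekeeping promoters, was in 52.9% of the members' windows on either strand, in 37.3% of those of 8670 tested genes and in 35.7% of all 27305 windows. The core of sites for ETS factors (CCGGAAG) was in 45.7%, 21.7% and 10.7% in that order. The GC box (GGGCGG) was in 67.4% of members' and 73.0% of tested genes' windows, and TATAAA in 2.17% and 4.84%. The motifs did not separate the members by call: CCAAT was in 58.1% of 43 higher members and 50.5% of 95 others, and CCGGAAG in 44.2% and 46.3%. ZNF556, with repeated CCAAT boxes, ZNF616, with an ETS core beside the start, and ZNF766, with both, are shown as examples, with matches to these 3 motifs (CCAAT box, ETS core, GC box) on either strand in capitals.
ZNF556 (chr19:2867085-2867384, plus strand): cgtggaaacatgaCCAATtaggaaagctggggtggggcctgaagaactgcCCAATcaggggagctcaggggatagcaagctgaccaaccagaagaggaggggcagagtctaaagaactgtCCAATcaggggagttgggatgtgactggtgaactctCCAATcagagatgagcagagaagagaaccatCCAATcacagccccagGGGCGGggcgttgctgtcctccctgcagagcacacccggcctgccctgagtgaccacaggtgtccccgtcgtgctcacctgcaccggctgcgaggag
ZNF616 (chr19:52139889-52140188, minus strand): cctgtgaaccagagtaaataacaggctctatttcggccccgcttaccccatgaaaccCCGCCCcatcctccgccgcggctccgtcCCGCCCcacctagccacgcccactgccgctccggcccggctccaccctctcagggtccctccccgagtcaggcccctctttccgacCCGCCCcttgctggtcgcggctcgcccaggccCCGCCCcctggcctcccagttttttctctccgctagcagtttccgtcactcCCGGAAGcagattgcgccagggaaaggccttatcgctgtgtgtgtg
ZNF766 (chr19:52269337-52269636, plus strand): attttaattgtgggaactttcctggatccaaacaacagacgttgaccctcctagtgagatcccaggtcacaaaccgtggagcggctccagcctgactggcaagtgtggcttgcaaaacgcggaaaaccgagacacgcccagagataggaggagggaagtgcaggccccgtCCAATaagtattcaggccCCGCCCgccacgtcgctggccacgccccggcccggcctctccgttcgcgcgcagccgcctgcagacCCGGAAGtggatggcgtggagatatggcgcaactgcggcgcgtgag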

How the data were processed

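RNA sequencing of 3 shTRMT6 and 3 shControl libraries was deposited as a table of FPKM, a value for every gene in every library (per the file headers); groups and replicate numbers came from the sample titles. Tools listed in the submitters' processing notes, with no roles, are RSEM, StringTie 1.3.1, HISAT2, Bowtie2 2.2.8 and fastp 0.18.0; strand setting and build: not given in the sources used here. FPKM are not counts, so limma 3.58.1 (R 4.3.3, trended variance prior, two-sided) was run on log2(FPKM + 1) for the 10592 genes whose mean reached 1 FPKM, with Benjamini-Hochberg adjustment over all of them and a threshold of 0.05. On simulated data this recovered 45.0% of changes of 0.5 and 89.0% of changes of 1 in log2, with 3.60% false calls. The simulation changed 100 genes at each size, whereas 35.4% of tested genes were called in the real data. Its noise was independent for each gene and held no slope on GC content. The 3.60% therefore does not cover false calls from such a slope. Positions, GC content and exon overlap came from GENCODE release 29. Protein features came from its translated coding sequences, in place of the RefSeq proteins first intended, which were not used here. The GC correction removed a loess curve (span 0.5) of each library's deviations on transcript GC content.

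Members and lists were chosen with earlier results of these data known. Named were TRMT6; the 8 highest and up to 4 lowest members called with groups that did not overlap; the 6 most abundant; the leading member of each cluster of at least 3; the 2 genes on either side of 1 FPKM; and of the partners the 4 largest changes, TRIM28 and SETDB1. Deviations from the group mean correlated between libraries of the same number (0.21, 0.36 and 0.17 for replicates 1, 2 and 3). Between different numbers the correlations were -0.29 to 0.094. The main fit ignored the numbers, and only the fits with the replicate block paired libraries by them. What a number means is not in the labels. Alternatives were the replicate block, other pseudocounts, filters, scalings, variance priors and thresholds, the GC correction and each library left out.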

Additional observations from a re-analysis of the deposited data

How the results depend on the processing

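The main counts were 47 members higher and 2 lower, and the members' median log2 fold change was 0.25. The count of higher members was 27 without a filter on low values, 8 of the 33 with a mean of at least 5 FPKM (median 0.11), 20 at a threshold of 0.01 and 27 with the GC correction without shControl replicate 1, which was chosen after seeing the data. The count of lower members was 6 with the GC correction, 7 with that correction and the replicate block, 4 with the correction without shControl replicate 1, and 1 at a threshold of 0.01. Leaving out 1 library at a time gave 24 to 54 members higher, 1 to 2 lower and a median of 0.19 to 0.33, and over all tested genes 1295 to 2027 higher and 1112 to 1731 lower, against 2042 and 1704. At a threshold of 0.01, 1114 tested genes were higher and 949 lower. The replicate block gave 62 members higher and 2 lower, kept all 47 and changed no call of a named gene. TRIM28 was at 0.16 with the GC correction and the replicate block (adjusted p = 0.0154), against -0.015, not called, in the main analysis. Among the genes named by the rule, TRMT6 included, 333 values over the alternatives were called in the same direction and 95 were not called, with the same direction, as in the main analysis; 6 that were not called changed sign, 18 lost the call and 6 gained one. Except where named, the cause of a change was not tested. Depth is known only roughly: 1 FPKM in a member of median length, 3888 bases, is about 70.0 to 79.3 fragments in shTRMT6 and 81.3 to 109.6 in shControl libraries, which limits what can be said of members near 1 FPKM.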
